A study of Mus musculus with 8 samples.

Results

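The genes described here are 8 collagen genes typical of fibroblasts and 2 further genes used as signs that chondrocytes are losing their character, Dpt and Thy1. They were chosen by symbol, and all 10 were found among the 24067 genes of the table. RNA was sequenced from chondrocytes, the cells of cartilage, isolated from the knee joints (femoral condyles and tibial plateaus) of ICR mice aged 5 days. All cells grew in DMEM with 10% serum at 3% oxygen and 5% carbon dioxide and received 50 nM of either a control small RNA (miR-Ctrl, 4 libraries) or miR-204 (4 libraries). Transfection lasted 24 h, the harvest came 24 h after its end, and the 8 libraries shared strain, age, medium and dose. The labels do not say whether the replicates were separate cultures or litters, so the p-values reflect only how far these 8 libraries scatter, and that scatter may be technical.

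Cartilage matrix is built on fibrils of type II collagen. Chondrocytes kept in monolayer gradually stop making it and turn to the collagens of fibroblasts, a drift called dedifferentiation that is commonly followed by the level of type I against type II collagen. Type I collagen (Col1a1, Col1a2) forms the thick fibrils of skin, tendon and bone, type III (Col3a1) accompanies it in pliable tissues, and type V (Col5a1, Col5a2) sits inside these fibrils and limits their width. Type VI (Col6a1, Col6a2, Col6a3) forms beaded microfilaments, which in cartilage surround each chondrocyte. Dpt encodes dermatopontin, a small matrix protein that binds decorin, and Thy1 encodes a surface glycoprotein (CD90) of fibroblasts and mesenchymal stromal cells. A microRNA lowers transcripts whose 3′ UTR pairs with its seed, bases 2 to 8 from its 5′ end.

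The sequences of miR-204-5p and of the matches to its seed are shown first because the 10 genes fall into groups by them. The mature miRNA is from RefSeq (GRCm38.p6, chr19:22750610-22750631, plus strand), with the seed in capitals, and the target stretches are from the GENCODE M21 transcripts (mm10), with the match in capitals.
miR-204-5p: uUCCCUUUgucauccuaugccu
Col6a1, 8mer: tcaactgtcttAAAGGGAAcgctgagatgc
Col5a1, 8mer: ccagagagaacAAAGGGAAagagccgtgtc
Col6a2, 7mer-A1: acaggtagaagAAGGGAAccccacagaaat
Thy1, 6mer: acccagcttaccAAGGGAgagcctttattc
Col1a1, 6mer: gtgctatttaacAAGGGAgaagagagtgcg
The words searched were AAAGGGAA (8mer), AAAGGGA (7mer-m8), AAGGGAA (7mer-A1) and AAGGGA (6mer), on the transcript strand of the longest annotated 3′ UTR, each place being counted once under its longest match. Col6a1 and Col5a1 were the members with an 8mer, which 749 of 10701 tested genes with an annotated 3′ UTR also had. The match in Col6a1 (gene on the minus strand of chromosome 10, 76708792 to 76726168) lay at chr10:76709430-76709437, in exon 35 of 35 and 122 bases into a 3′ UTR of 767. The match in Col5a1 (plus strand of chromosome 2, 27886425 to 28039514) lay at chr2:28037186-28037193, in exon 66 of 66 and 170 bases into a 3′ UTR of 2498. Col6a2 (7mer-A1 at chr10:76598222-76598228) held a further 6mer. Thy1 (chr9:44048286-44048291, exon 4 of 4) and Col1a1 (chr11:94952729-94952734, exon 51 of 51) held a 6mer only, and Col1a2, Col3a1, Col5a2, Col6a3 and Dpt held none of these words. A match is a description of the sequence and does not show that the site is used.

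The cells carried the defining genes of chondrocytes, all 7 checked being at 43.8 FPKM or more in every library (FPKM, mapped fragments scaled by transcript length and library depth). The lowest was Sox9, the master regulator of the lineage. Col2a1 was between 7836 and 27530 FPKM. Both replicate 2 libraries stood apart from the other 6 on the first principal component (58.4% of the variance). In them the collagenase gene Mmp13 stood at 1628 FPKM (miR-Ctrl) and 908 FPKM (miR-204), against 3.66 to 54.8 elsewhere, so the results below are also given without this replicate. FPKM summed to 416560 to 490818 per library. Low values step by the worth of 1 fragment, and these steps put the depth of the other 7 libraries at 0.771 to 0.956 of that of miR-Ctrl replicate 1, with both replicate 2 libraries lowest.

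Together the 10 genes made up 0.550% to 1.08% of the summed FPKM of a library. By mean FPKM over the 8 libraries, a scale that allows for transcript length, the order of levels was Col1a1 (1074), Col1a2 (860.0), Col3a1 (455), Col5a2 (385), Col6a1 (366), Col6a2 (271), Col5a1 (115), Col6a3 (104), Thy1 (10.5) and Dpt (7.02). The 8 collagens were all among the upper 5% of the 11612 tested genes, Col1a1 at rank 67 and Col6a3 at rank 569. Dpt and Thy1 were mid-range genes, with 41.2% and 53.8% of tested genes below them. Col3a1 exceeded Col5a2 in only 5 of 8 libraries, so these neighbours do not differ beyond their spread. Col5a2 exceeded Col6a1 in 4 of 8, which were the miR-204 libraries, and lay below it in every miR-Ctrl library. Col5a1 exceeded Col6a3 in 4 of 8, which were the miR-Ctrl libraries, and lay below it in every miR-204 library. The order within these pairs of neighbours thus differed between the groups. The remaining steps held in 8 of 8 libraries, except Thy1 over Dpt in 7 of 8.

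The comparison asked whether this group of genes differed after miR-204. Its members did not all move one way. Tested without regard to replicate number, 0 of the 10 genes passed (limma, adjusted over all 11612 genes), where 0.207% of all tested genes did, and 2 of the 10 were under an unadjusted p of 0.05. Libraries of equal number deviated together, and with the number as a block 2 genes fell (Col6a1 and Col5a1) and 3 rose (Dpt, Col6a3 and Thy1). Among all tested genes 2.83% fell and 12.4% rose in that fit, 15.2% in all. The median log2 fold change was 0.0032 over the 10 genes and 0.064 over all tested genes. With every library centred on its median, which removes that shift, the same 5 genes passed in the same directions, against 4.32% lower and 4.99% higher (9.31% in all) over all genes. These 5 of the 10 genes went one way in all 4 pairs, a share near the 41.3% of all tested genes that did (33.9% higher and 7.44% lower).

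**Figure D1:**
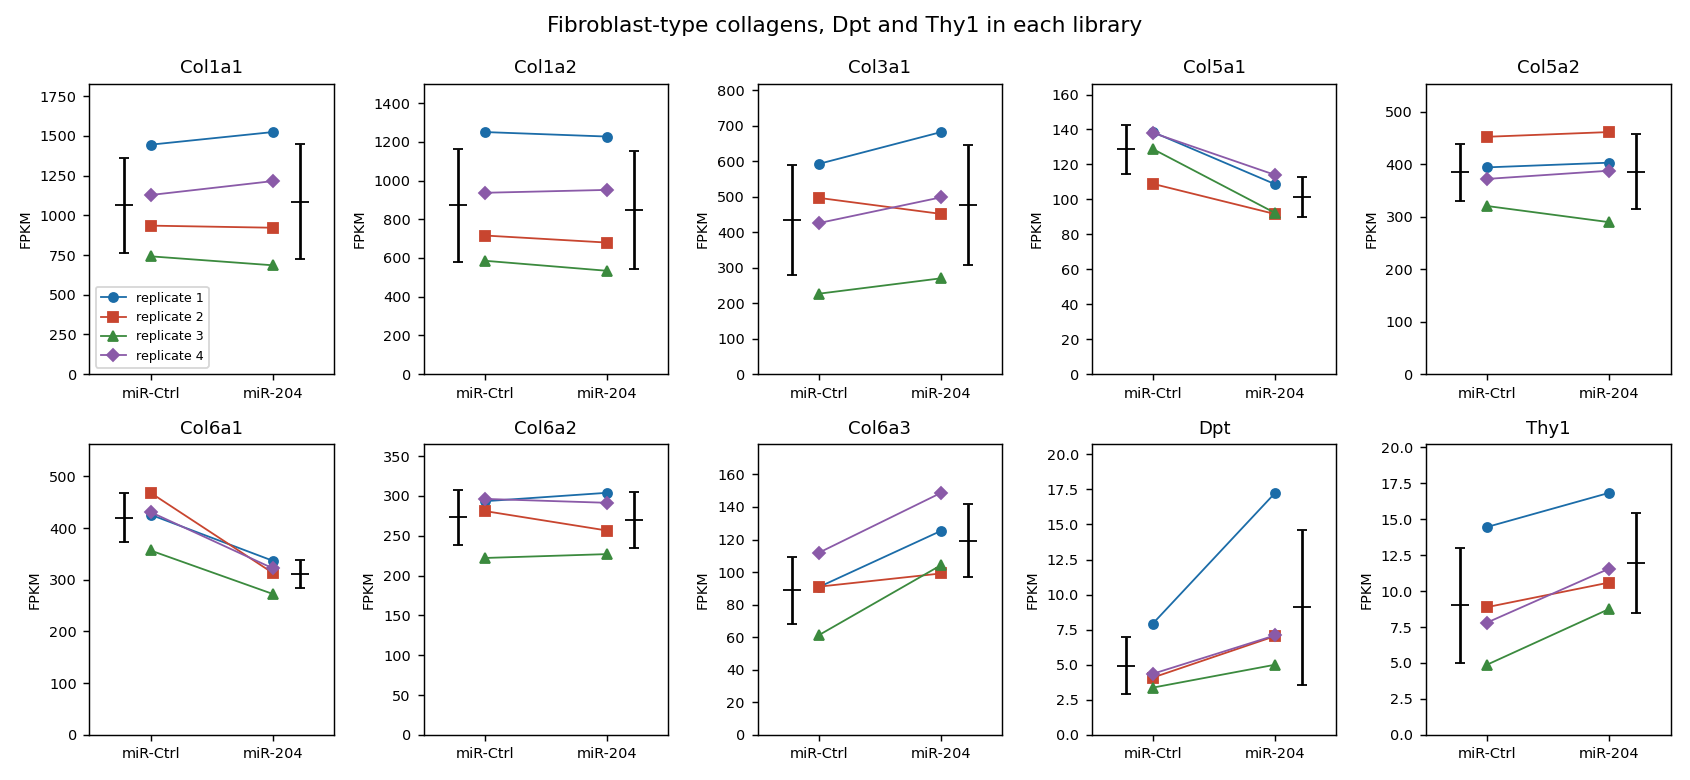
FPKM (linear axis from 0) of each gene in the 4 miR-Ctrl and 4 miR-204 libraries, with lines joining libraries of equal replicate number and black bars giving mean ± SD. Col6a1 is the gene whose groups do not overlap, while the lines of Col1a1 and Col1a2 run nearly level and far apart.

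Type I collagen differed between replicates and hardly between treatments. Col1a1 (gene ID 12842) was at 1445, 935, 742 and 1128 FPKM in miR-Ctrl replicates 1 to 4 and at 1524, 922, 685 and 1215 in miR-204 replicates 1 to 4. Col1a2 (12843) was at 1250, 716, 586 and 937 FPKM with miR-Ctrl and at 1227, 679, 534 and 951 with miR-204. Both genes ran in the order 1, 4, 2, 3 in either group, with replicate 1 highest, and the groups overlapped almost fully. Of the sum of squares of Col1a1 over the 8 libraries on the log2 scale, 98.8% lay between replicate numbers and 0.026% between groups, and for Col1a2 the shares were 99.2% and 0.38%. The log2 fold change of Col1a1 was 0.013, with a paired 95% interval of −0.11 to 0.13 (paired adjusted p = 0.881). That of Col1a2 was −0.053, with an interval of −0.15 to 0.046 (paired adjusted p = 0.397). Neither passed.

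Type III collagen lay near the same pattern. Col3a1 (12825) was at 592, 496, 226 and 425 FPKM with miR-Ctrl and at 682, 451, 270 and 498 with miR-204, with replicate 3 lowest in both groups. It was higher with miR-204 in 3 of 4 pairs and lower in pair 2 (0.909 times the control). The log2 fold change was 0.14 with a paired interval of −0.035 to 0.31 (paired adjusted p = 0.221). Without both replicate 2 libraries it was 0.23 and passed the paired test (adjusted p = 0.00874), in 3 of 3 pairs, so the call for Col3a1 turned on that replicate. In that fit 2781 of all 11612 tested genes were higher and 522 lower.

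Of the chains of type V collagen, Col5a1 fell in the paired fit and Col5a2 did not pass. Col5a1 (12831), which has the 8mer shown above, was at 139, 109, 129 and 138 FPKM with miR-Ctrl and at 109, 91.6, 92.2 and 114 with miR-204. It was lower in 4 of 4 pairs, at 0.784, 0.841, 0.716 and 0.825 times the control, though the lowest control library (replicate 2) lay below the highest treated one (replicate 4). The mean went from 129 ± 13.9 to 102 ± 11.4 FPKM (SD, n = 4), a log2 fold change of −0.34 ± 0.11 (SE). It did not pass unpaired (adjusted p = 0.418) and fell in the paired fit (adjusted p = 0.0118), also without replicate 2 (adjusted p = 0.00742). Without the libraries of replicate 1 or of replicate 4 the paired adjusted p was 0.0695 and 0.0760, with log2 fold changes of −0.33 and −0.36. Col5a2 (12832), its partner chain without a seed match, was at 394, 452, 320 and 372 FPKM with miR-Ctrl and at 403, 461, 290 and 388 with miR-204. Replicate 2 was highest and replicate 3 lowest in both groups. Its log2 fold change was −0.0064, with a paired interval of −0.12 to 0.10.

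Of the chains of type VI collagen, Col6a1 fell and Col6a3 rose in the paired fit, and Col6a2 did not pass. Col6a1 (12833), with an 8mer, was at 426, 468, 357 and 431 FPKM with miR-Ctrl and at 337, 313, 272 and 322 with miR-204. Every miR-204 library lay below every miR-Ctrl library, which held for Col6a1 alone among the 10 and, of all tested genes, for 1.58% in this direction and 5.9% in either. The pairs stood at 0.791, 0.668, 0.764 and 0.747 times the control. Its mean went from 420 ± 46.5 to 311 ± 27.5 FPKM (SD, n = 4), a log2 fold change of −0.43 ± 0.10 (SE, unpaired adjusted p = 0.241), and it fell in the paired fit (adjusted p = 0.00710). The paired call held without replicate 1, 2 or 3 (adjusted p = 0.0454, 0.00381 and 0.0361) and was lost without replicate 4 (adjusted p = 0.0658, log2 fold change −0.44).

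Col6a2 (12834), whose gene lies beside Col6a1 on the same strand of chromosome 10, was at 293, 281, 222 and 296 FPKM with miR-Ctrl and at 304, 257, 227 and 291 with miR-204. The groups overlapped, and its log2 fold change was −0.018 with a paired interval of −0.12 to 0.085. It is the member with a 7mer-A1. Col6a3 (12835) encodes the longest of these chains, which carries the endotrophin fragment at its end. It was at 90.8, 91.0, 61.2 and 112 FPKM with miR-Ctrl and at 125, 99.2, 104 and 149 with miR-204. It was higher in 4 of 4 pairs, least in pair 2 (1.09 times the control) and most in pair 3 (1.70 times), while the groups overlapped. The log2 fold change was 0.44 ± 0.20 (SE, unpaired adjusted p = 0.595), and Col6a3 rose in the paired fit (adjusted p = 0.0326, and 0.0468 with centred libraries). Without both replicate 2 libraries it was 0.54 with a paired adjusted p of 0.00802, and without replicate 1, 3 or 4 it did not pass (0.129, 0.0816 and 0.134) at log2 fold changes of 0.43, 0.33 and 0.45.

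**Figure D2:**
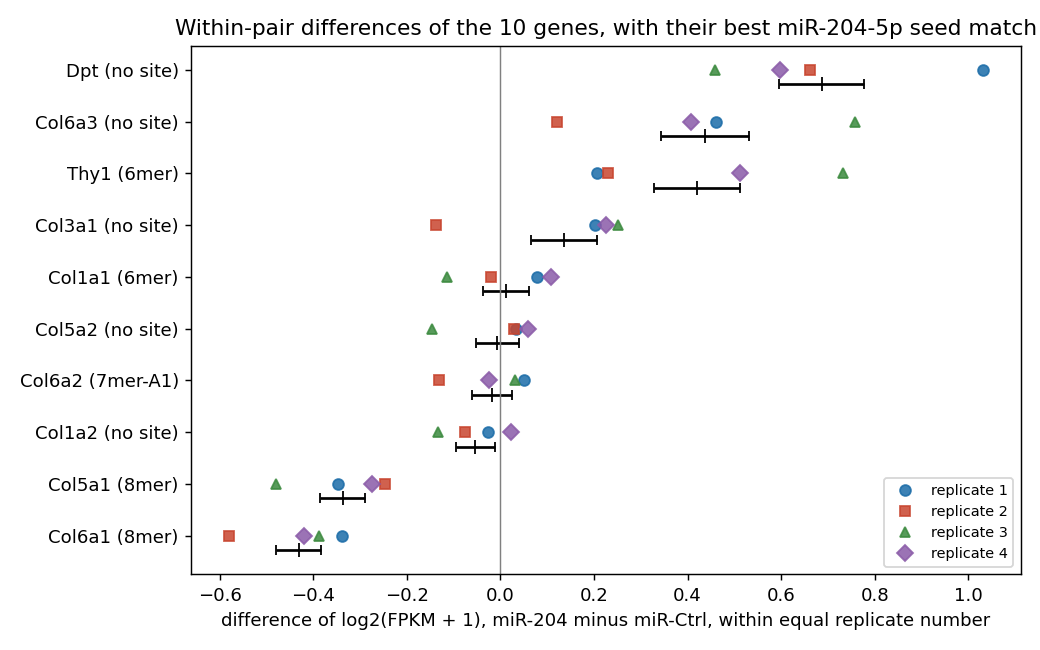
Difference of log2(FPKM + 1), miR-204 minus miR-Ctrl, within each replicate number (coloured points), with the mean and its paired standard error (black), for the 10 genes and their best seed match. All 4 points lie below 0 for Col5a1 and Col6a1, the genes with an 8mer, and above 0 for Dpt, Col6a3 and Thy1.

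Dermatopontin and Thy1 were low and rose within pairs. Dpt (56429, plus strand of chromosome 1, 164796644 to 164824266) was at 7.94, 4.08, 3.37 and 4.35 FPKM with miR-Ctrl and at 17.3, 7.04, 5.00 and 7.10 with miR-204. Replicate 1 was highest and replicate 3 lowest in both groups, and the groups overlapped only through miR-Ctrl replicate 1. Its level was 2.17, 1.72, 1.49 and 1.63 times the control within pairs 1 to 4. The log2 fold change of 0.69 ± 0.36 (SE) on the scale of FPKM + 1, which understates changes of such low genes, did not pass unpaired (adjusted p = 0.651). Dpt rose in the paired fit (adjusted p = 0.0103), also without replicate 1, 2 or 3 (0.0431, 0.0116 and 0.0338), and did not pass without replicate 4 (0.0693, at a log2 fold change of 0.72).

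Thy1 (21838, plus strand of chromosome 9, 44043384 to 44048579) was at 14.5, 8.88, 4.88 and 7.81 FPKM with miR-Ctrl and at 16.8, 10.6, 8.76 and 11.6 with miR-204. Replicate 1 was again highest and replicate 3 lowest, and the pairs stood at 1.16, 1.19, 1.80 and 1.48 times the control. The log2 fold change was 0.42 ± 0.30 (SE, unpaired adjusted p = 0.745). Thy1 rose in the paired fit (adjusted p = 0.0330), which with centred libraries was close to the threshold (0.0497). Without replicate 2 the paired adjusted p was 0.0208, and without replicate 1, 3 or 4 it was 0.0814, 0.0829 and 0.152, at log2 fold changes of 0.49, 0.32 and 0.39. T cells and neurons also make Thy1. Of their 6 markers Cd3e and Cd3g were at 0 in every library. Tubb3, the one tested, was higher in 1 of 4 pairs and did not pass (0.016, paired adjusted p = 0.926). Rbfox3 and Snap25, at no more than 0.056 and 0.00599 FPKM, were higher in 2 of 4 and 1 of 4 pairs. Lck, a kinase of T cells that was below the level tested, was at 0.860, 0.608, 0.813 and 0.804 FPKM with miR-Ctrl and at 0.936, 1.08, 1.17 and 0.989 with miR-204. It was higher in 4 of 4 pairs and its groups did not overlap, so it moved in the direction of Thy1. Of all tested genes 33.9% were higher in 4 of 4 pairs, and 4.32% were higher without overlap of the groups. The part of Lck-expressing cells in the rise of Thy1 was not tested. The summed level of the list was 1.65 to 2.47 FPKM with miR-Ctrl and 1.57 to 2.54 with miR-204.

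Ratios between chains were compared within libraries, because such a ratio does not depend on how a library was scaled. For each of 6 ratios the log2 values of the groups (4 against 4 libraries) were compared by exact permutation, two-sided. Such a test cannot give a p below 0.0286, and p-values were adjusted over the 6. Col6a2 over Col6a1 was 0.689, 0.600, 0.623 and 0.687 with miR-Ctrl and 0.903, 0.820, 0.833 and 0.905 with miR-204. Col6a3 over Col6a1 was 0.213, 0.194, 0.172 and 0.260 with miR-Ctrl and 0.372, 0.317, 0.383 and 0.462 with miR-204. In both ratios every miR-204 library lay above every miR-Ctrl library. Both are taken over Col6a1, whose own groups did not overlap, so they are not separate results. Col6a2 itself was at a log2 fold change of −0.018. The ratios were 1.33-fold and 1.83-fold higher (log2 differences 0.41 and 0.87), each with the smallest exact p of 0.0286 and an adjusted p of 0.0857 over the 6, which is above 0.05. The transcripts of the type VI chains thus stood nearer to each other in the miR-204 libraries, with Col6a1 still the highest in all 8.

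Col5a1 over Col5a2 was 0.352, 0.241, 0.402 and 0.371 with miR-Ctrl and 0.270, 0.198, 0.318 and 0.294 with miR-204. It was lower in 4 of 4 pairs, by −0.38, −0.28, −0.34 and −0.34 on the log2 scale (mean −0.33), with an exact paired p of 0.125, the smallest that 4 pairs allow. Replicate 2 was lowest in both groups, and the groups overlapped (exact permutation p without pairing 0.200, adjusted 0.343). Leaving out replicate 2 of miR-Ctrl alone gave a difference of −0.49, and leaving out that of miR-204 alone gave −0.19. Col1a1 over Col1a2 stayed between 1.16 and 1.36 in all 8 libraries. It was higher with miR-204 in 4 of 4 pairs by a mean of 0.066 on the log2 scale (exact permutation p = 0.229, adjusted 0.343). Col3a1 over Col1a1 ranged from 0.305 to 0.531 and differed by 0.12 (exact permutation p = 0.543, adjusted 0.651).

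Col1a1 over Col2a1, the usual measure of dedifferentiation, was 0.0774, 0.114, 0.0269 and 0.0580 with miR-Ctrl and 0.0923, 0.118, 0.0326 and 0.0755 with miR-204. Type II collagen transcripts thus outnumbered those of Col1a1 in every library, least so in both replicate 2 libraries and most so in both of replicate 3. The ratio was higher with miR-204 in 4 of 4 pairs, by 0.25, 0.047, 0.28 and 0.38 on the log2 scale. The exact paired p was 0.125, the smallest that 4 pairs allow, so 4 pairs cannot pass the threshold. The exact permutation test without the pairing gave 0.657 (adjusted 0.657). Col1a1 itself did not pass, and Col2a1 was at −0.23 (paired adjusted p = 0.0594).

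**Figure D3:**
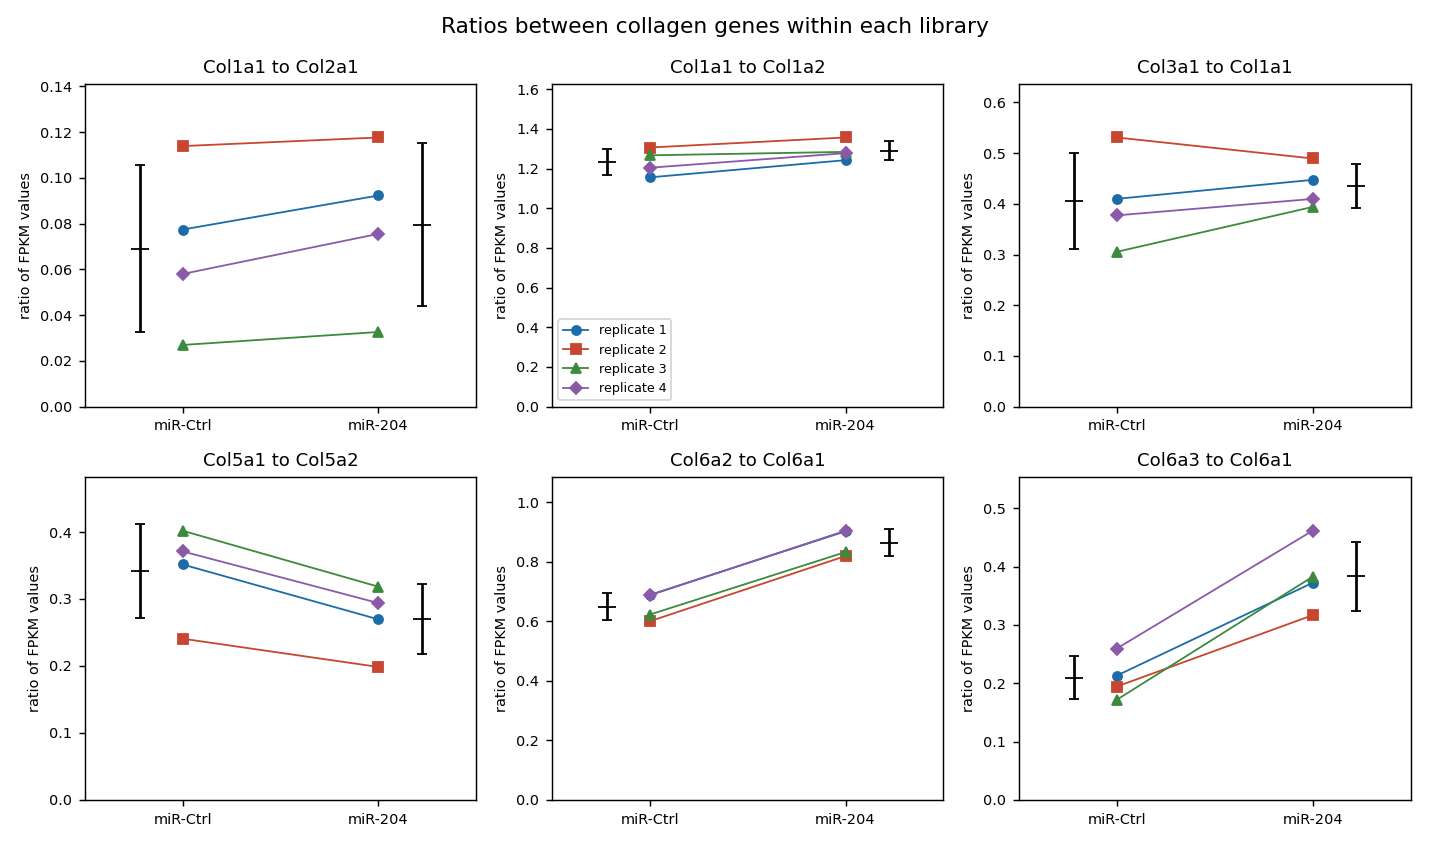
Ratios of FPKM values between collagen genes in each library (linear axes from 0), with lines joining equal replicate numbers and black bars giving mean ± SD of the ratios. The groups do not overlap for Col6a2 over Col6a1 and for Col6a3 over Col6a1, and Col1a1 over Col2a1 is ordered by replicate.

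Genes of fibroblast matrix outside the 10 were called at shares of the order of all tested genes, of which 12.4% rose and 2.83% fell in the paired fit. Of 14 further collagens outside the cartilage types, 10 were tested, 0 passed unpaired by limma (0 at an unadjusted p below 0.05) and 1 rose in the paired fit, with a median log2 fold change of 0.069, against 0.064 over all tested genes. It was Col14a1, a fibril-associated collagen, at 10.6, 3.62, 4.46 and 6.60 FPKM with miR-Ctrl and at 13.2, 4.93, 5.13 and 7.66 with miR-204 (log2 fold change 0.25, paired adjusted p = 0.0214). With centred libraries it did not pass (0.0758). Col5a3, the third chain of type V, was at 18.9 and 11.9 FPKM in both replicate 2 libraries and at 1.68 to 4.15 elsewhere, and did not pass (−0.15, paired adjusted p = 0.409).

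Among 23 genes of fibroblasts and dedifferentiated chondrocytes, 21 were tested and 0 passed unpaired (0 at an unadjusted p below 0.05). In the paired fit 3 of the 21 rose and 1 fell, and the list's median was 0.13, where that of all tested genes was 0.064. Cd44, the hyaluronan receptor, rose (0.51, paired adjusted p = 0.0185), with its highest values in both replicate 2 libraries (39.8 and 45.3 FPKM against 7.55 to 19.6 elsewhere). Nt5e, the ecto-nucleotidase CD73, rose from 36.9 ± 7.22 to 45.8 ± 9.17 FPKM (SD, n = 4; 0.30, paired adjusted p = 0.00644), and its 3′ UTR also holds an 8mer. Vim, the intermediate filament vimentin, rose from 906 ± 190 to 1106 ± 214 FPKM (SD, n = 4; 0.29, paired adjusted p = 0.0496) and did not pass with centred libraries (0.0896). Vcan, the large proteoglycan versican, fell (−0.29, paired adjusted p = 0.0250) with no seed match in its 3′ UTR. Over all tested genes whose best match was an 8mer, 17.6% fell and 4.01% rose in the paired fit. The shares were 6.68% and 10.3% for a 7mer-m8, 4.33% and 10.4% for a 7mer-A1, 1.46% and 12.4% for a 6mer, and 0.874% and 14.3% without a match.

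Of 14 genes of chondrocyte identity, 0 passed unpaired by limma (1 at an unadjusted p below 0.05), and in the paired fit 1 fell and 0 rose, where 2.83% of all tested genes fell and 12.4% rose. The one that fell was Hapln1, the link protein of aggrecan (−1.04, paired adjusted p = 0.00136), and its 3′ UTR holds an 8mer. With centred libraries Sox9 was lower too (paired adjusted p = 0.0217). Acan, the aggrecan core protein, was at −0.28 (paired adjusted p = 0.0773). Of the 14 genes 6 had positive log2 fold changes. Matn3 and Col9a3 were higher in 4 of 4 pairs without passing (0.31 and 0.12, paired adjusted p = 0.0768 and 0.286). Hapln1, Col2a1 and Sox9 were higher in 0 of 4. The list's median was −0.072, below that of all tested genes (0.064).

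**Figure D4:**
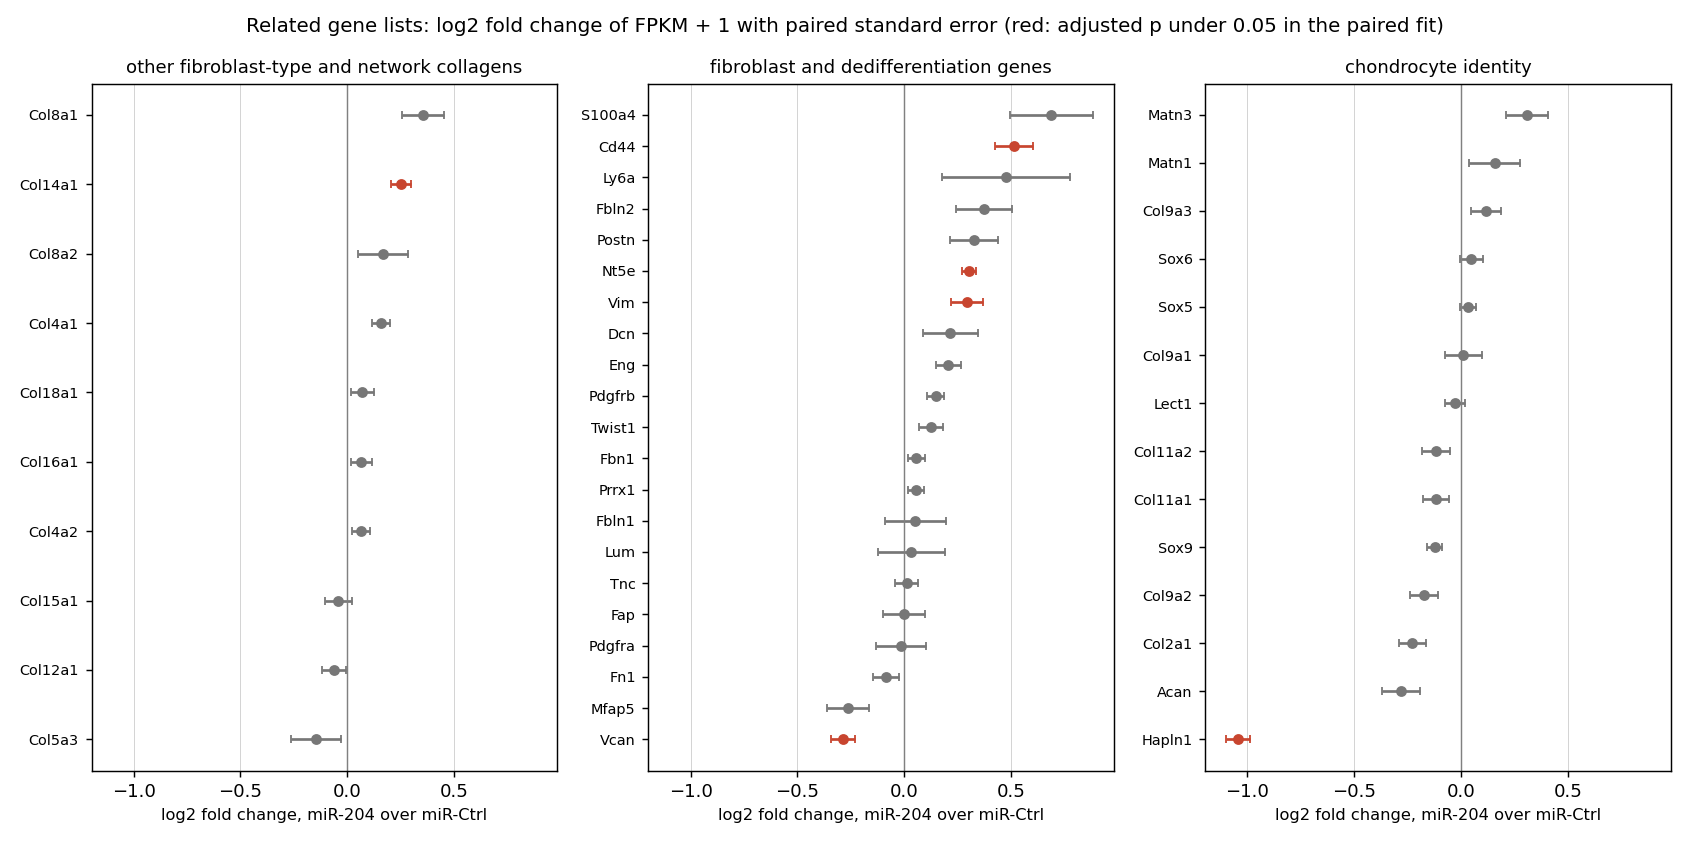
Log2 fold change of FPKM + 1 (miR-204 over miR-Ctrl) with its paired standard error for the tested genes of the 3 related lists, red where the paired adjusted p was under 0.05. Col14a1, Cd44, Nt5e, Vim, Vcan and Hapln1 are red, and most points of the first list lie near 0.

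Markers of other cells that make these collagens were checked beside the results. Over all tested genes the median log2 fold change was 0.064. Of them 12.4% rose and 2.83% fell in the paired fit, and 33.9% were higher and 7.44% lower in all 4 pairs. All 4 tendon markers were tested and had positive log2 fold changes (median 0.23), and Tnmd rose in the paired fit (10.4 ± 3.22 to 12.8 ± 3.28 FPKM, SD, n = 4; 0.29, paired adjusted p = 0.0125). Mkx and Thbs4 were also higher in 4 of 4 pairs without passing (0.26 and 0.072, paired adjusted p = 0.105 and 0.290), and Scx in 3 of 4 (0.20, paired adjusted p = 0.177). Their summed level was 35.7 to 42.6 FPKM with miR-Ctrl and 38.5 to 50.5 with miR-204. Of 6 macrophage markers in the table, Cd68 rose in the paired fit (1.01, paired adjusted p = 0.00997), and Lyz2, the most abundant of them, was higher in 4 of 4 pairs without passing (0.45, paired adjusted p = 0.0561). Lyz2 was at 2.55 to 10.0 FPKM with miR-Ctrl and at 4.98 to 11.1 with miR-204. The pan-leukocyte gene Ptprc was at no more than 0.031 FPKM and Itgam at no more than 0.043, higher with miR-204 in 3 of 4 and 0 of 4 pairs. Emr1 and Csf1r, at no more than 0.188 and 0.193 FPKM, were higher in 0 of 4 and 2 of 4. The list summed to 3.23 to 12.4 FPKM with miR-Ctrl and 8.54 to 16.1 with miR-204. Of 6 skeletal muscle markers Acta1 rose in the paired fit (0.94, paired adjusted p = 0.0173), and 5 were below 1 FPKM in every library. Their summed level was 0.974 to 5.22 FPKM with miR-Ctrl and 3.03 to 8.55 with miR-204. Osteoblast markers summed to 7.40 to 31.2 FPKM with miR-Ctrl and 12.4 to 28.6 with miR-204, and of 4 tested 0 passed in either fit (0 at an unadjusted p below 0.05 unpaired). Bglap2 and Bglap, near-identical osteocalcin genes whose reads cannot be told apart with certainty, were at 0.52 and 0.42 (paired adjusted p = 0.225 and 0.151). Of the 4 tested, 3 had positive log2 fold changes and Sp7 did not (−0.078, higher in 1 of 4 pairs, paired adjusted p = 0.671). Ibsp, a bone matrix protein of this list, was at 12.1 and 14.3 FPKM in both replicate 2 libraries and at 0.284 to 3.57 elsewhere. All 5 endothelial markers were below 1 FPKM in every library, the highest being Tek (up to 0.269) and Pecam1 (up to 0.109), and their sum was 0.127 to 0.407 FPKM with miR-Ctrl and 0.217 to 0.463 with miR-204. Of the 4 pericyte markers Myh11 and Rgs5 were below 1 FPKM, Notch3 at 0.508 to 1.27, and Cspg4, which made up most of the sum (52.1 to 133 FPKM with miR-Ctrl, 60.2 to 120 with miR-204), did not pass (−0.0067, paired adjusted p = 0.952). Acta2, the smooth muscle actin also made by myofibroblasts, was not on this list and was looked up after its values were seen. It rose in both fits, by 1.01 on the log2 scale (adjusted p = 0.0242 unpaired and 0.00320 paired). Among all tested genes 0.0258% rose unpaired and 12.4% rose in the paired fit. As a gene picked by its values, Acta2 does not stand for the list. Of the synovial lining list only Prg4 was tested and did not pass (0.18, paired adjusted p = 0.628), and the list summed to 8.44 to 34.9 FPKM with miR-Ctrl and 17.9 to 30.1 with miR-204. Tspan15 of that list was at 0.461 to 1.61. The part of such cells in the rises of Dpt, Col6a3 and Thy1 was not tested. In bulk RNA, more cells of a type and more RNA per cell cannot be told apart.

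Most of the 10 genes shared their lowest replicate, and 4 of 10 ran in the same order of replicates in both groups. Replicate 3 was lowest in 9 of 10 genes with miR-Ctrl and in 8 of 10 with miR-204, and replicate 1 was highest in 6 and 7. Between replicate numbers lay 23.1% of the sum of squares of Col6a1 and 36.4% of that of Col5a1, against 50.5% for Col6a3, 65.3% for Dpt, 74.3% for Thy1 and over 95% for the other 5. Outside the group, the genes whose log2 levels most resembled the mean of the 10 over the 8 libraries were Thbs4 (r = 0.98), which is also on the tendon list, Cped1, Selm, Ndnf, Edil3 and Col4a5 (r = 0.97 for the last). Closest to Dpt were Cntf (r = 0.98), Sdc3 and Gtl3, and closest to Thy1 were Pcna (r = 0.99), Rragd and Rgs2. These correlations rest on 8 libraries that share replicate numbers, and describe likeness of pattern only.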

How the data were processed

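The table deposited by the authors gave 1 FPKM value per gene and library. Per the submitters' processing notes it was made with TopHat and Cufflinks 2.2.1 on mm10. No source used here names the TopHat version, Cufflinks mode, annotation or strand setting. Libraries were stranded and poly(A)-selected per the labels' protocols. If strand was not used, reads of Col5a1 and Dpt could not be told from transcripts annotated on the opposite strand. Other genes annotated on the same strand overlap the spans of Col1a2, Col3a1, Col5a2 and Col6a3, where strand does not separate reads. FPKM are not counts, so no count model was used, and the number of reads behind a value is unknown. No value column was left unused.

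The members and gene lists were chosen with earlier results of these data known. Genes averaging 1 FPKM or more over the 8 libraries (11612, all 10 members among them) were kept. Their log2(FPKM + 1) values were fitted in R 4.3.3 with limma 3.58.1 (trended prior, two-sided, Benjamini-Hochberg adjustment over all tested genes, threshold 0.05), either without the replicate number or with it as a block ("paired"). Across genes, same-numbered libraries deviated together (r = 0.44, 0.82, 0.76 and 0.62 for numbers 1 to 4), so the numbers were taken to pair the samples. That rests on the data, as the labels hold a number and nothing on what it marks. Ratios were tested in Python 3.11.15 with scipy 1.17.1. Symbols turned into dates or missing (158) were restored for 156 through the gene identifier. Named genes are the 10 members, Col2a1, Acan, Sox9 and Mmp13. From each other list the genes that passed are named, at most 4 by size of change, or the 2 of highest mean. Acta2, Col5a3, Ibsp, Sp7, Lyz2, Mkx, Thbs4, Scx, Ptprc, Itgam, Emr1, Csf1r, Myh11, Rgs5, Cd3e, Cd3g, Rbfox3, Snap25, Matn3 and Col9a3 were named after their values were seen. The 6 genes most like the members' mean and the 3 most like Dpt and Thy1 were taken by Pearson correlation of log2 values. Alternatives were the pseudocount, the filter, centring, quantile normalization, an untrended prior and leaving out libraries. The fit was tested on simulated data.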

Additional observations from a re-analysis of the deposited data

Results flagged for a closer look

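In miR-204, the level of Dpt in replicate 1 (17.3 FPKM) lay far from the other 3 libraries (5.00 to 7.10 FPKM). Its gap to the nearest library took up so much of the group's range that it just passed Dixon's limit for 4 samples. Replicate 1 was also the highest for Dpt in miR-Ctrl (7.94 FPKM). Levels of the 10 genes and the 6 ratios in both groups made 32 such checks, and chance flags about 1 in 20 of them.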

How the results depend on the processing

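The log2 fold changes of Col5a1, Col6a1, Col6a3, Dpt and Thy1 kept their direction under each of the alternatives run, with ranges over single libraries or replicates left out of −0.41 to −0.29, −0.51 to −0.37, 0.27 to 0.56, 0.36 to 0.90 and 0.19 to 0.66. Those near 0 did not. Col1a1 was at −0.051 with centred libraries, with and without the replicate block, and at −0.037 after quantile normalization, and ranged from −0.17 to 0.21 with libraries left out. With the block it was −0.0089 without replicate 1 and −0.019 without replicate 4. The ranges with libraries left out were −0.25 to 0.14 for Col1a2, −0.15 to 0.38 for Col3a1, −0.099 to 0.12 for Col5a2 and −0.11 to 0.061 for Col6a2. With the block, Col5a2 was at 0.040 without replicate 3 and Col6a2 at 0.019 without replicate 2. Unpaired, 0 members passed by limma under any setting. With the replicate block 3 members were higher and 2 lower, likewise with centred libraries. With the block, the higher and lower members numbered 4 and 2 without replicate 2, 1 and 1 without replicate 1, 1 and 2 without replicate 3, and 0 and 0 without replicate 4, with fewer samples. The block fits without replicate 1, 3 or 4 were chosen after seeing the data.

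Over all genes, 3 were higher and 21 lower unpaired (763 and 235 at an unadjusted p below 0.05). These counts were 0 and 9 with no filter on low values, 8 and 55 with centred libraries, 7 and 66 after quantile normalization, and 0 to 4 and 0 to 16 with libraries left out. With the replicate block they were 1436 and 329, and 579 and 502 with centring as well. They were 2781 and 522 without replicate 2, 89 and 83 without replicate 1, 236 and 149 without replicate 3, and 42 and 48 without replicate 4. The median of all genes was 0.064 and close to 0 once centred, so higher and lower calls depend on this scaling. The log2 ratio of Col6a2 to Col6a1 was 0.41 and that of Col6a3 to Col6a1 0.87 under pairing, each with the smallest exact p that 4 pairs allow, 0.125. With libraries left out they ranged from 0.38 to 0.44 and from 0.78 to 0.98. Col1a1 to Col2a1 ranged from −0.15 to 0.62, Col3a1 to Col1a1 from −0.0035 to 0.26, Col5a1 to Col5a2 from −0.49 (without miR-Ctrl replicate 2) to −0.19 (without miR-204 replicate 2), and Col1a1 to Col1a2 from 0.035 to 0.094 (replicate 1 or 2 of miR-Ctrl left out). The cause of these changes was not tested.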
